A study of Mus musculus with 9 samples.

Results

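Rab GTPases are the small G proteins that give membrane compartments their identity and direct vesicle traffic between them. They were read here on 101 probe sets of 52 annotated genes, out of 22626 non-control probe sets and 12393 genes on the arrays. The rule took the annotated symbol and no measured value, and kept all probe sets with a single gene symbol made of Rab followed directly by a digit, leaving out symbols that contain if, fip, gap or ip. Of the 52 genes, 2 meet these letters without being GTPases: Rab3il1, an exchange factor, and Rab26os, a non-coding gene on the strand opposite Rab26. The remaining 50 genes, with 95 probe sets, are Rab GTPases, and 27 of them have several probe sets.

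The cells were RAW 264.7, a mouse macrophage line, with 3 arrays in each of 3 groups. One group was left untreated, another received bacterial lipopolysaccharide (LPS, the Toll-like receptor 4 ligand) at 100 ng/ml for 18 h, and the last is labelled as constitutively overexpressing CstF-64, a subunit of the cleavage stimulation factor that helps form mRNA 3' ends. All groups are the same line. The sources used here do not give the construct, whether those cells were a clone or a pool, or whether replicates were separate cultures. The p-values thus reflect the spread among these arrays alone, and that spread may be technical. Values are deposited linear intensities, and log2 changes are differences of log2(intensity + 13), a scale that understates the change of dim probe sets.

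A Rab protein switches between a GTP-bound form, in which it recruits effectors to a membrane, and a GDP-bound form, which a GDP dissociation inhibitor can extract from the membrane. Guanine nucleotide exchange factors switch it on and GTPase-activating proteins switch it off. In macrophages these proteins order the steps by which phagosomes and endosomes mature, recycle cargo such as receptors to the surface, and secrete cytokines. A change in mRNA level says nothing of the nucleotide state of the protein.

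The targeted gene, Cstf2, was not higher in labelled CstF-64 than in untreated arrays on either of its 2 probe sets. Its brighter probe set 1419645_at read 378 ± 18.0 in untreated, 222 ± 26.1 in LPS and 358 ± 38.4 in labelled CstF-64 arrays (SD, n = 3 each), with a log2 change of −0.08 in labelled CstF-64 against untreated (limma adjusted p = 1.00). On this probe set Cstf2 fell after LPS (change −0.74, adjusted p = 0.00343), and labelled CstF-64 arrays were higher than LPS arrays (change 0.66, adjusted p = 0.00660). The second probe set, 1419644_at, read 114.7, 100.2 and 134.1 untreated, 136.1, 107.0 and 113.0 after LPS, and 97.1, 85.4 and 80.4 in labelled CstF-64 arrays. Those last arrays lay below all others, opposite to the label, without passing the test (change against untreated −0.36, adjusted p = 0.763). Where these probes lie relative to the construct was not examined, and the group is called labelled CstF-64 throughout. The 12 macrophage markers were all measured and none lay at or below background on all arrays. Of these, 4 rose after LPS (Fcgr1, Adgre1, Itgam and Cd14, by log2 changes of 2.01, 1.67, 1.48 and 0.81) and Csf1r fell (change −0.70), while 0 passed in labelled CstF-64 arrays against untreated. Their summed intensity was 18638 to 25176 in untreated, 25073 to 28175 in LPS and 20144 to 24247 in labelled CstF-64 arrays. Among lymphocyte markers 5 of 7 measured genes lay at or below background on all arrays, and among fibroblast and endothelial markers 5 of 6. For granulocyte and mast cell markers this held for 2 of 7, with sums of 195 to 207 in untreated, 178 to 327 in LPS and 189 to 244 in labelled CstF-64 arrays, and for neuron markers for 2 of 4. Osteoclast markers, a fate open to this line, were at background in 1 of 5, and Mmp9 and Acp5 rose after LPS (changes 2.33 and 1.59). Their summed intensity varied widely within each group, at 640 to 1638 in untreated, 944 to 2176 in LPS and 1401 to 3005 in labelled CstF-64 arrays. The part of these markers in the Rab results was not tested. Array LPS 1 stood somewhat apart, with a mean correlation of 0.966 to its own group against 0.975 to 0.985 for the other arrays. Median intensity was lower in LPS arrays, at 42.8 to 49.3, than in the others, at 51.1 to 54.2. The number of arrays limits the precision.

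Of the 50 Rab GTPase genes, 35 read above background on all 9 arrays on their brightest probe set. Background was set at 31.2, the highest reading of 27 control probe sets for Bacillus genes. The brightest readings belonged to Rab1a and Rab2a of the early secretory pathway, Rab11a of the recycling endosome, Rab7 of the late endosome, and Rab14, although intensities of different probe sets do not rank transcript abundance. At the other end, 9 genes lay at or below the limit on all arrays, namely Rab17, Rab25, Rab27b, Rab30, Rab33a, Rab3b, Rab3c, Rab40b and Rab6b. Of these, Rab3b and Rab3c are known for regulated exocytosis in neurons and endocrine cells, Rab6b for neurons, and Rab17 and Rab25 for epithelia. A further 6 genes, Rab20, Rab27a, Rab37, Rab38, Rab3a and Rab4a, read on both sides of the limit.

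After LPS, 7 Rab probe sets rose and 7 fell, of 101. Over all non-control probe sets 5.93% rose and 10.7% fell, so the Rab counts lie close to what those shares give for 101 probe sets. A call means a limma adjusted p of 0.05 or less (Benjamini-Hochberg over all 22626 probe sets). LPS and untreated arrays were fully separate on 34 Rab probe sets, against 33.4% of all probe sets. The median log2 change was 0.01 for the Rab probe sets and −0.04 for all. Counting each GTPase gene by its brightest probe set, 5 genes rose (Rab20, Rab11a, Rab21, Rab6a and Rab2a) and 2 fell (Rab7b and Rab14), with 6.67% and 10.4% of all genes as background and medians of 0.15 and −0.03. Without LPS 1 the probe set counts were 4 higher and 4 lower. The split depended on the scaling, at 6 higher and 3 lower after quantile normalization and 11 and 1 after centring each array on its median. Centring moved the median of all probe sets from −0.04 to 0.12, and that of the Rab probe sets to 0.17.

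**Figure D1:**
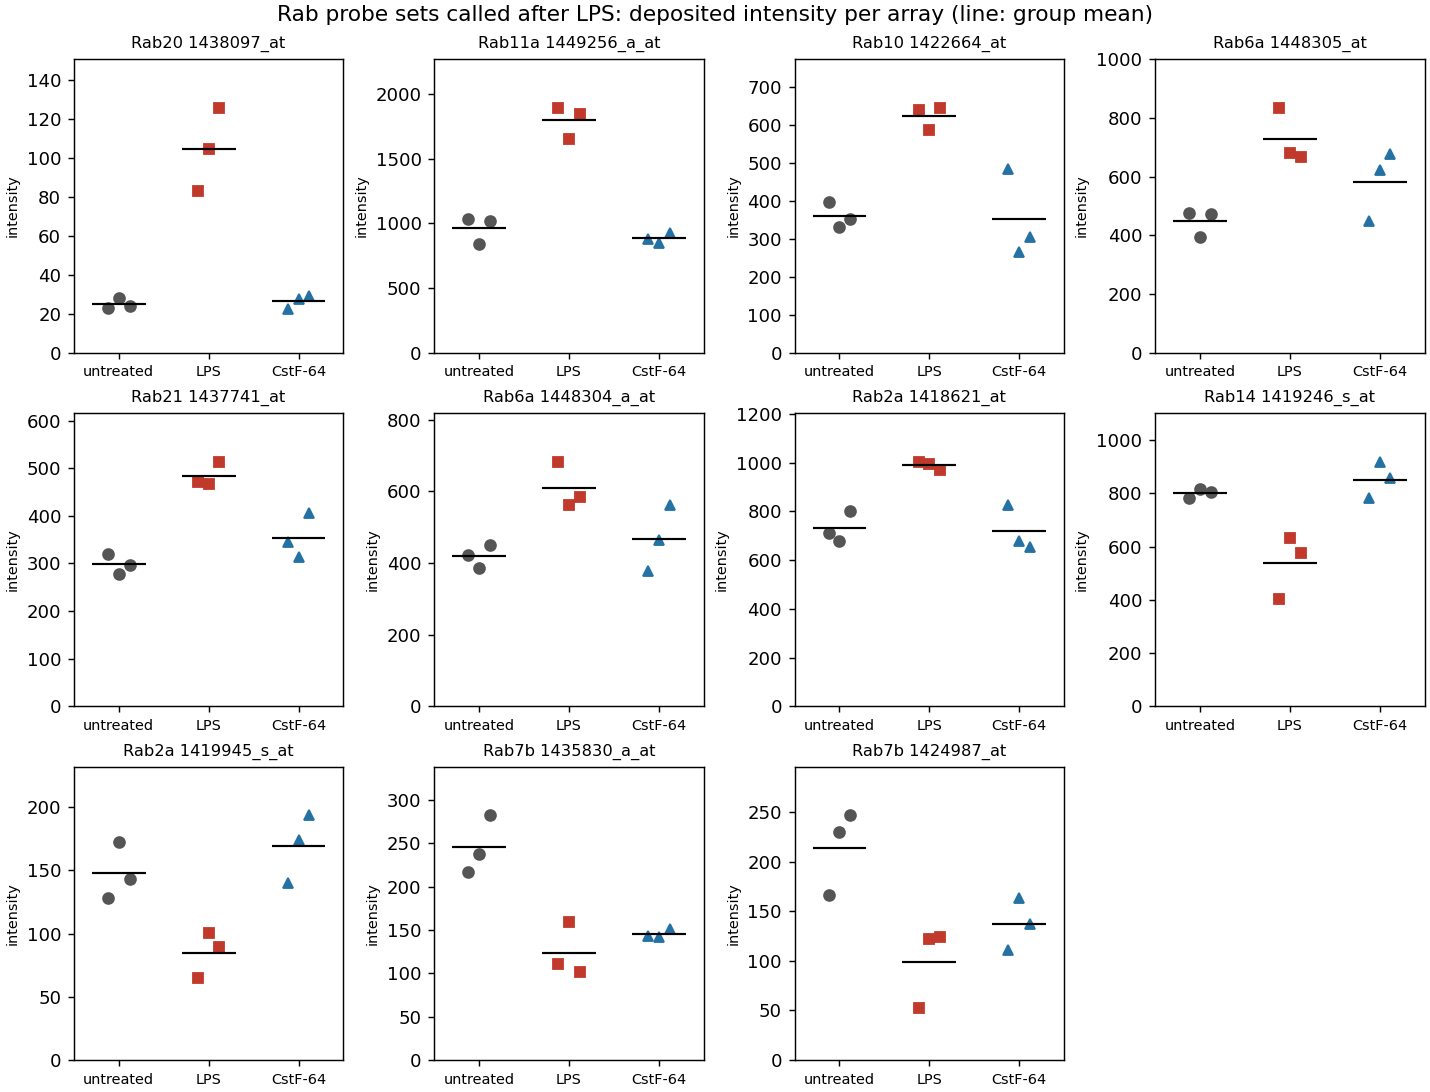
Deposited intensity (vertical axes, linear, starting at 0) on each of the 9 arrays for the 11 Rab probe sets called after LPS that exceed background on at least 1 array; symbols are arrays and lines are group means. Rab20 and Rab11a stand higher on all 3 LPS arrays than on any other array, while both Rab7b probe sets stand lower in LPS than in untreated arrays.

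Early endosome and phagosome genes gave 2 rises among 9, against 6.67% of all genes higher and 10.4% lower. These shares apply to each role class below, and no class was tested as a set. Rab20, which acts in phagosome maturation, had the largest change of any Rab probe set. It read 23.0, 28.2 and 24.1 in untreated arrays, 83.1, 104.6 and 125.8 in LPS arrays, and 22.5, 27.6 and 29.1 in labelled CstF-64 arrays. All 3 LPS arrays lay above background and the other 6 below it, so the rise is a bound, at least 3.30-fold (log2 change 1.61, SE 0.18, adjusted p = 0.000303). Rab21, known for the endocytosis of integrins, read 319.1, 278.6 and 296.7 untreated, 470.8, 467.8 and 513.8 after LPS, and 344.8, 312.9 and 405.3 in labelled CstF-64 arrays. The LPS arrays lay above all others, by a log2 change of 0.68 against untreated (SE 0.12, adjusted p = 0.00455). A dimmer Rab21 probe set, 1437742_at, changed by 0.25 (adjusted p = 0.377).

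The other early endosome genes did not pass the test. Rab22a, an endosomal Rab of the Rab5 group, read 141.9, 138.8 and 158.3 untreated and 341.1, 180.0 and 229.7 after LPS. On this brightest probe set, 1451379_at, LPS arrays lay above the untreated ones but spread widely (log2 change 0.68, SE 0.21, adjusted p = 0.0554). Its dimmer probe sets went the other way, 1424503_at by −0.75 (adjusted p = 0.313) and 1424504_at by −0.09 (adjusted p = 0.889). Rab5a, a master regulator of early endosome fusion, had a log2 change of 0.41 (SE 0.17, adjusted p = 0.156) with no overlap between the groups. Its paralogs Rab5b and Rab5c gave −0.22 (adjusted p = 0.607) and 0.31 (adjusted p = 0.604). Rab31 and Rab24 gave −0.07 and 0.15. Rab5c rested on uneven untreated arrays, with 210.6 on untreated 1 against 409.3 and 428.0 on the others.

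Recycling and plasma membrane delivery genes gave 1 rise and 1 fall among 12, against 6.67% and 10.4% of all genes. Rab11a, the main Rab of the recycling endosome, read 1030.6, 842.4 and 1016.3 untreated, 1893.5, 1654.5 and 1844.4 after LPS, and 879.1, 846.8 and 925.9 in labelled CstF-64 arrays. Every LPS array exceeded every other array, with a log2 change of 0.89 (SE 0.12, adjusted p = 0.000732). Rab14, which works between Golgi, endosomes and phagosomes, read 781.6, 816.4 and 804.6 untreated, 404.8, 631.2 and 576.4 after LPS, and 781.7, 919.5 and 856.5 in labelled CstF-64 arrays. The LPS arrays lay below all others (log2 change −0.59, SE 0.16, adjusted p = 0.0302). The other 5 Rab14 probe sets also had negative changes, −0.05 to −0.47, without passing the test.

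Rab10, which delivers Toll-like receptor 4 to the surface of mouse macrophages, rose on 1 of its 3 probe sets. Probe set 1422664_at read 395.7, 331.1 and 352.6 untreated, 638.1, 587.2 and 643.9 after LPS, and 483.8, 264.3 and 304.2 in labelled CstF-64 arrays. The LPS arrays lay above all others, with a log2 change of 0.77 (SE 0.19, adjusted p = 0.0228). The brightest Rab10 probe set, 1453095_at, changed by 0.01 (adjusted p = 0.986) and 1429296_at by −0.28 (adjusted p = 0.455). Array LPS 1 was low on both. It read 309.5 against 519.4 and 496.6 on the other LPS arrays for 1453095_at, and 116.7 against 229.5 and 205.0 for 1429296_at. Among genes of this class that did not pass, Rab11b, the close paralog of Rab11a, changed by −0.02 (SE 0.10), Rab8b by 0.22 and Rab4b by 0.18. Rab8a, which serves exocytosis, read 306.9 on untreated 3 against 830.4 and 798.1 on the other untreated arrays, and its change of 0.15 had an SE of 0.34.

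ER, Golgi and secretory pathway genes gave 2 rises among 12, against 6.67% of all genes. Rab6a, a Golgi Rab, read 477.3, 394.4 and 474.0 untreated, 834.0, 682.1 and 667.1 after LPS, and 447.4, 620.8 and 675.4 in labelled CstF-64 arrays on probe set 1448305_at. The LPS arrays lay above the untreated ones, while the labelled CstF-64 arrays spanned both (log2 change after LPS 0.68, SE 0.17, adjusted p = 0.0211). The call was lost without untreated 2 or without LPS 1, with an adjusted p of up to 0.0856. Its other probe set, 1448304_a_at, rose by 0.52 (adjusted p = 0.0431). This second call was lost under 10 of 18 alternatives, among them quantile normalization and leaving out any single untreated or LPS array or labelled CstF-64 2 (adjusted p up to 0.143). Rab2a, which acts between ER and Golgi, read 712.7, 678.6 and 801.8 untreated, 1004.0, 995.6 and 969.8 after LPS, and 825.1, 680.3 and 652.2 in labelled CstF-64 arrays on its brightest probe set, 1418621_at. The LPS arrays lay above all others (log2 change 0.43, SE 0.12, adjusted p = 0.0345). That call was lost under 8 of 18 alternatives, among them leaving out untreated 1, untreated 2, any single LPS array or labelled CstF-64 2, with an adjusted p of up to 0.123.

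Of the remaining genes of the secretory class, Rab1a and Rab1b, which serve ER to Golgi transport, changed by 0.38 and 0.32 (adjusted p = 0.138 for each), both without overlap between the groups. A dimmer Rab1a probe set, 1448210_at, changed by −0.10 (adjusted p = 0.801), and there the groups overlapped. Rab34 gave −0.37 (adjusted p = 0.136). Rab18, a Rab of lipid droplets and the ER, gave 0.24 (adjusted p = 0.230), and Rab33b, a Golgi Rab linked to autophagy, gave −0.03.

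Late endosome and lysosome genes gave 1 fall among 6, against 10.4% of all genes. Rab7b, known in macrophages for the traffic of Toll-like receptors to lysosomes, read 216.8, 237.8 and 282.2 untreated, 110.2, 158.8 and 101.4 after LPS, and 143.3, 142.2 and 151.6 in labelled CstF-64 arrays on probe set 1435830_a_at. The untreated arrays lay above all others, and the log2 change after LPS was −0.94 (SE 0.17, adjusted p = 0.00475). The second Rab7b probe set, 1424987_at, read 166.3, 229.7 and 246.6 untreated and 52.0, 121.5 and 123.7 after LPS. These arrays did not overlap either, and the change of −1.08 (SE 0.29) passed with an adjusted p of 0.0295. That call was lost under 5 of 18 alternatives, with an adjusted p of up to 0.0996. These were quantile normalization, median centring, fitting only the 2 groups compared, and leaving out untreated 2 or untreated 3. Rab7, the Rab that drives fusion of late endosomes with lysosomes, changed by 0.22 (adjusted p = 0.222).

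Rab32, a Rab of lysosome-related organelles, was uneven after LPS, at 86.1 on LPS 1 against 342.6 and 348.3 on the others. The untreated arrays read 187.8, 200.4 and 157.3, between these values, and the log2 change was 0.27 (SE 0.42, adjusted p = 0.749). Rab9 and Rab29 changed by −0.06 and −0.27. On brightest probe sets, none of the 7 regulated secretion genes and none of the 4 other genes passed the test. Of all genes, 6.67% rose and 10.4% fell. The secretory granule Rab Rab3d, above background on all arrays, changed by 0.01 (SE 0.13), and Rab28 by −0.08.

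**Figure D2:**
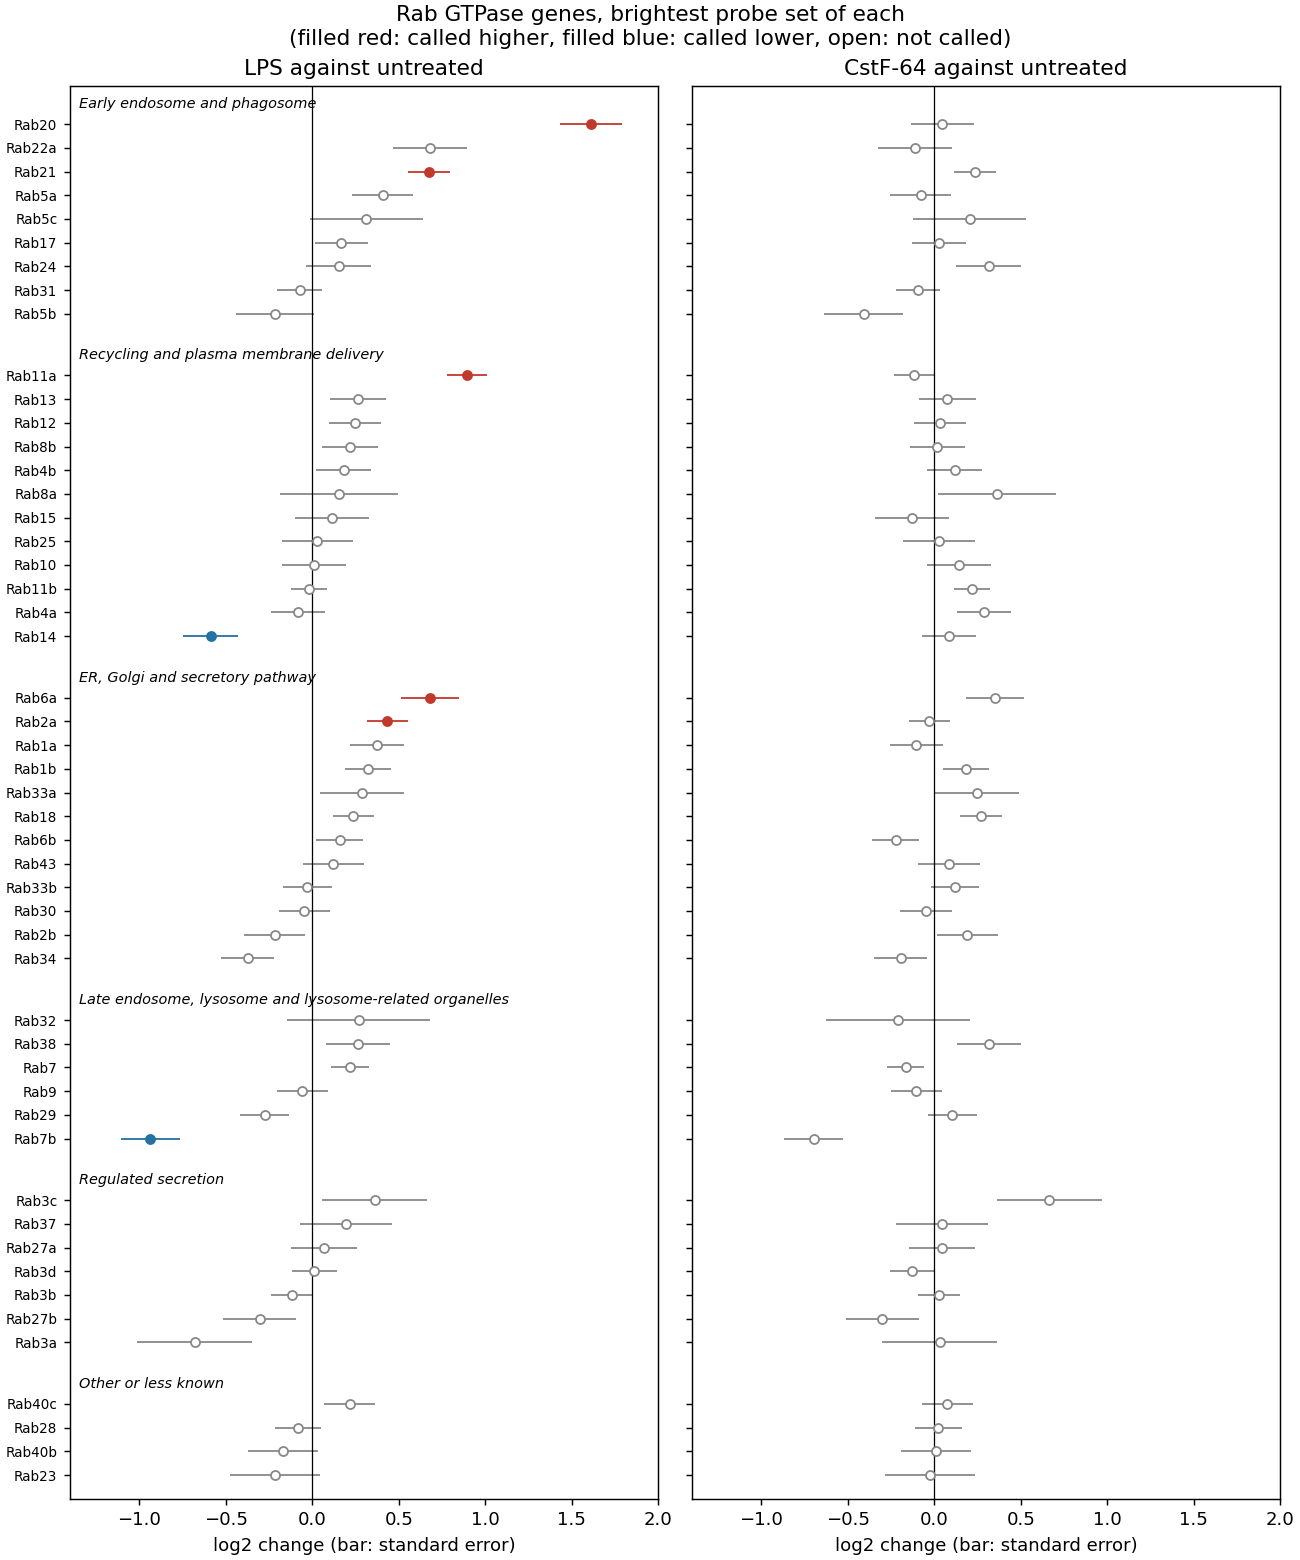
Log2 change (horizontal axes) of the brightest probe set of each of the 50 Rab GTPase genes after LPS (left) and in labelled CstF-64 arrays (right), both against untreated, grouped by role; bars are standard errors, filled points passed the test. On the left 5 genes are filled as higher and 2 as lower, and on the right none is filled.

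Of the 7 lower calls, 3 lay at or below background on all arrays, so no fold is given for them. They are Rab26os, which is no GTPase, Rab2a probe set 1449676_at and Rab27a probe set 1425284_a_at. The 4 others are the pair of Rab7b probe sets, Rab14 and Rab2a probe set 1419945_s_at. Calls on Rab20, Rab21, Rab11a and Rab7b probe set 1435830_a_at held under all 18 alternatives. The Rab14 call was lost under 6 alternatives, among them leaving out any single untreated array or LPS 3 (adjusted p up to 0.119). The Rab10 call was lost without untreated 2, untreated 3, LPS 1 or LPS 3 (adjusted p up to 0.0844).

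The promoters of 3 genes that rose, 250 bases before and 50 after the annotated start, are shown because they carry the largest gene-level rises with a RefSeq entry (assembly GRCm38.p6), each written 5′ to 3′ on the gene's strand. Capitals mark matches to the motifs searched on both strands. Rab20 lies at chr8:11478591-11478890 on the minus strand, Rab11a at chr9:64737707-64738006 on the minus strand and Rab6a at chr7:100607336-100607635 on the plus strand.
Rab20: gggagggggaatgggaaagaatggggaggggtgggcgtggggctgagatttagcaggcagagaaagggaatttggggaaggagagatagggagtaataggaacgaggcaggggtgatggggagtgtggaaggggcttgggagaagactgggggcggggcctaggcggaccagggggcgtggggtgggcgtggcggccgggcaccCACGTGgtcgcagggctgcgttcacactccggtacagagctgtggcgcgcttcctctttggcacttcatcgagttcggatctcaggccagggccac
Rab11a: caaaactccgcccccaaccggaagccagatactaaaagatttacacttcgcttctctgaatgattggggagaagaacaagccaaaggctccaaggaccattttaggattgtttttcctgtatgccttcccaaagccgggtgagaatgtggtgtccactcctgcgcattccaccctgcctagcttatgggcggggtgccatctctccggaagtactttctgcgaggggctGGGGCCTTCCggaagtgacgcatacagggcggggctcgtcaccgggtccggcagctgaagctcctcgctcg
Rab6a: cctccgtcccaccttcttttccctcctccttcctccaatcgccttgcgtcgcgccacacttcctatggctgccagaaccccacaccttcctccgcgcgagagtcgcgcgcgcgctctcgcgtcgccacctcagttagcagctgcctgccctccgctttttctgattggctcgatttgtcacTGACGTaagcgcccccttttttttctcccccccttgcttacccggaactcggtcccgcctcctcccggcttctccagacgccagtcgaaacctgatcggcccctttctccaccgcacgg

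The capitals are an E-box (CACGTG) in Rab20, a match to the NF-kappaB motif in Rab11a and a cyclic AMP response element core (TGACGT) in Rab6a. Each gene thus carried a different motif of the 5 searched. The E-box was held by 7.15% of all 32851 promoters of this length, the NF-kappaB motif by 8.46% and the TGACGT core by 7.51%. Of the 54 promoters of 42 matched Rab GTPase genes, 6 held the E-box, 3 the NF-kappaB motif (Rab11a, Rab15 and Rab28) and 6 the TGACGT core. The AP-1 motif (TGANTCA) was in 2, against 7.81% of all promoters, and the interferon response motif in 0, against 3.44%. No searched motifs overlapped in the 3 promoters shown. These matches describe letters and not binding.

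Probe sets of a single gene can read different stretches of its transcripts, and for Rab2a and Rab11a they changed unequally after LPS. Unequal change was tested with the F test of limma's diffSplice, which called 2 of the 28 Rab genes tested and 5.59% of all 4956 genes with several probe sets. Rab2a, with 7 probe sets, had an adjusted p of 0.00649, and Rab11a, with 2, an adjusted p of 0.00661. Without untreated 2 neither call held (adjusted p = 0.116 for Rab2a and 0.0555 for Rab11a), and without untreated 3 the Rab2a call was lost (adjusted p = 0.0614). Rab2a probe sets 1449676_at, 1419946_s_at and 1436477_x_at entered the test although they lay at or below background on all arrays. The offset scale understates changes of dim probe sets, so unequal brightness can add to unequal change.

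On Rab2a, the brightest probe set rose while 1419945_s_at fell, with a log2 change of −0.72 (SE 0.19, adjusted p = 0.0255). That probe set read 128.4, 172.2 and 143.0 untreated, 65.2, 100.5 and 89.3 after LPS, and 139.7, 173.8 and 193.5 in labelled CstF-64 arrays. Its LPS arrays lay below all others, but the call was lost after quantile normalization, after median centring, and without untreated 2, untreated 3, LPS 1 or LPS 3 (adjusted p up to 0.104). Another, 1418622_at, read 226.0, 219.5 and 203.6 untreated and 27.2, 146.7 and 107.3 after LPS. The groups were separate, but LPS 1 was far below the other LPS arrays (log2 change −1.32, SE 0.44, adjusted p = 0.0721). On Rab11a, the dimmer probe set 1434549_at read 79.3, 84.0 and 89.4 untreated and 45.0, 69.8 and 60.2 after LPS. Its change of −0.46 did not pass the test (adjusted p = 0.258) and was opposite in sign to that of the brighter probe set.

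No other Rab gene passed the test of unequal change after LPS. The next lowest adjusted p were 0.0801 for Rab10, 0.187 for Rab40c, 0.213 for Rab22a, 0.279 for Rab21 and 0.363 for Rab1a. Rab14, whose probe sets all had negative changes, gave an adjusted p of 0.648. Rab22a probe set 1424503_at read 19.4 on LPS 1 against 101.5 and 124.8 on the other LPS arrays. The deposited files do not place the probes on transcripts, so the stretches read were not compared. In labelled CstF-64 arrays no Rab gene was called by the test of unequal change, against 0.0404% of all genes. The smallest unadjusted p was 0.0451, for Rab3c (adjusted p = 1.00), the only Rab gene at an unadjusted p under 0.05. Even the brightest Rab3c probe set lay at or below background on all arrays, so this value describes dim readings.

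**Figure D3:**
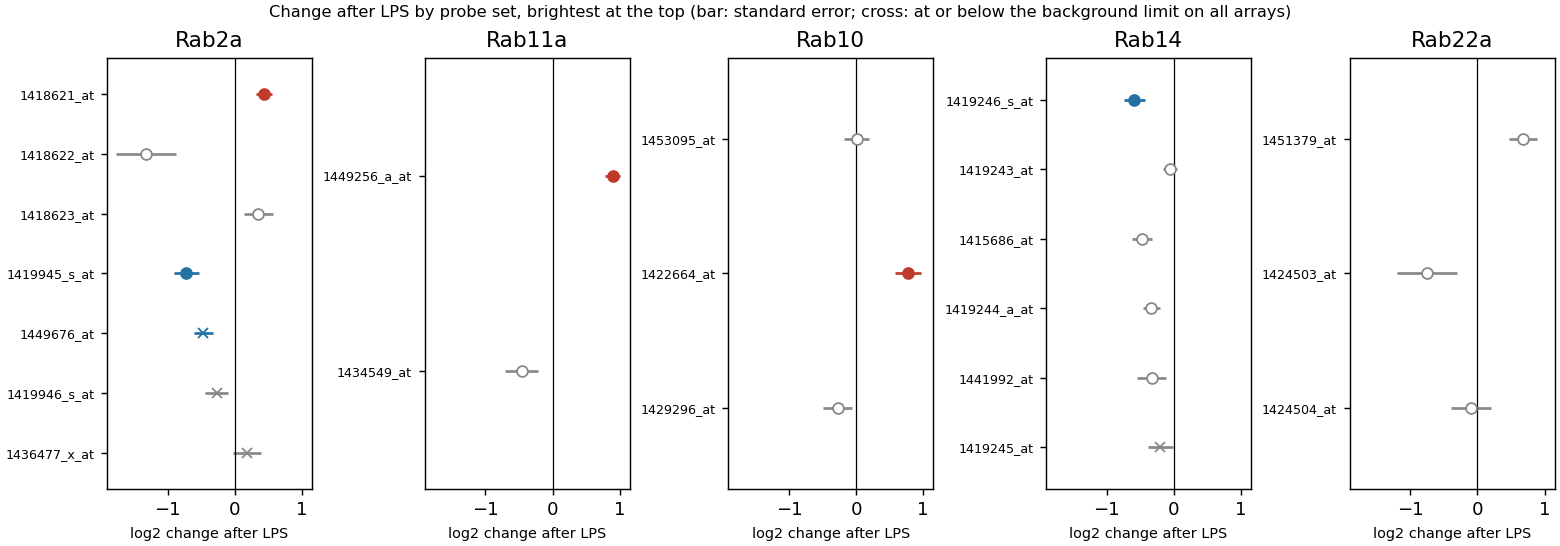
Log2 change after LPS (horizontal axes) for each probe set of Rab2a, Rab11a, Rab10, Rab14 and Rab22a, with the brightest at the top; bars are standard errors, red and blue filled points rose and fell, and crosses lie at or below background on all arrays. Rab2a holds called probe sets on both sides of 0, and in Rab14 all changes are negative.

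Paralogs that share a Rab number were compared for their change after LPS in the 8 pairs whose members both read above background on all arrays. The difference between 2 paralogs' log2 changes was taken on their brightest probe sets. Rab11a minus Rab11b gave 0.91 (SE 0.13), Rab2a minus Rab2b 0.65 (SE 0.12), Rab5a minus Rab5b 0.62 (SE 0.21) and Rab7b minus Rab7 −1.16 (SE 0.23). In these 4 pairs the within-array differences did not overlap between LPS and untreated arrays, which gives the smallest exact two-sided permutation p that 3 arrays against 3 allow, 0.1 (0.2 after adjustment over 8 pairs). The test could therefore not reach the threshold, and the sizes are given as a description. Of all single probe sets, 33.4% did not overlap between these groups. No such share was computed for differences between probe sets, and the Rab5 pairs share members. In the other 4 pairs the exact p was 0.4 to 1. Rab11a and Rab2a each have another probe set that changed in the opposite direction to the brightest. Their differences from Rab11b and Rab2b thus depend on the probe set chosen.

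In labelled CstF-64 arrays, 0 of the 101 Rab probe sets passed the limma test against untreated, and 4 (3.96%) had an unadjusted p under 0.05, against 6.45% of all probe sets. Over all probe sets 0.248% were called. No Rab call appeared under any of the 18 alternatives. The groups did not overlap for 12 probe sets, against 12.9% of all, and the median log2 change was 0.03 for the Rab probe sets and 0.00 for all. For 32 of the 35 GTPase genes above background on all arrays, the 95% interval of the log2 change lay between −1 and 1, that is within a 2-fold change either way on the offset scale. The 3 exceptions were Rab32 (−1.14 to 0.72), Rab7b (−1.08 to −0.32) and Rab8a (−0.40 to 1.13).

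Rab7b had the lowest unadjusted p of the 4 probe sets, a number no larger than the share over all probe sets gives. Its labelled CstF-64 arrays, at 143.3, 142.2 and 151.6, lay below all untreated arrays, with a log2 change of −0.70 that did not pass the adjustment (adjusted p = 0.279). Its second probe set gave −0.59 (adjusted p = 0.820). The remaining 3 probe sets at an unadjusted p under 0.05 were Rab18 1420900_a_at at 0.27 (adjusted p = 0.769), Rab2b 1452668_x_at at 0.47 (adjusted p = 0.630), and Rab27a 1425284_a_at, which lay below background. For Rab11a the 95% interval in labelled CstF-64 arrays was −0.38 to 0.14, while Rab20 lay below background in both groups and its change has no usable size.

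Set directly against LPS arrays, labelled CstF-64 arrays were higher on 6 Rab probe sets and lower on 7. Among the higher calls, Rab26os, which is no GTPase, and Rab2a 1449676_at lay at or below background on all arrays. Over all probe sets 9.43% were higher and 5.79% lower, and 26 Rab probe sets did not overlap, against 30.8% of all. Counted by brightest probe set, 1 GTPase gene was higher and 6 were lower, against 9.51% and 6.38% of all genes. The split turned with the settings, at 3 higher and 6 lower after quantile normalization, 1 and 13 after median centring, 12 and 10 with array weights, 2 and 4 with only the 2 groups fitted, and 3 and 7 without LPS 1. Leaving out single arrays gave 2 to 6 higher and 2 to 7 lower, the fewest higher without labelled CstF-64 3. This comparison shares its LPS arrays with the first, so the values are given side by side and not as a second piece of evidence. Rab20, below background in labelled CstF-64 arrays, was at least 3.30-fold lower there (adjusted p = 0.000395), and Rab11a was lower by a log2 change of −1.01 (adjusted p = 0.000383). Rab10 1422664_at differed by −0.85 (adjusted p = 0.0159), Rab2a 1418621_at by −0.46 (adjusted p = 0.0285) and Rab21 by −0.44 (adjusted p = 0.0360). In the other direction, Rab2a 1419945_s_at differed by 0.90 (adjusted p = 0.00998) and Rab14 1419246_s_at by 0.67 (adjusted p = 0.0178).

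Some probe sets passed here without passing in the comparison of LPS with untreated. Rab22a 1451379_at was lower in labelled CstF-64 arrays by a change of −0.79 (adjusted p = 0.0324), with 155.8, 112.1 and 138.4 there, all below the LPS arrays. The dimmer Rab22a probe sets 1424503_at and 1424504_at gave changes of 0.56 and 0.32 without passing the test. Rab7 differed by −0.38 (adjusted p = 0.0408), at 792.3, 741.2 and 734.3 against 877.2, 1016.0 and 1086.3 in LPS arrays. Those values do not overlap. Rab2b 1452667_at differed by 0.75 (adjusted p = 0.0377) and Rab14 1415686_at by 0.49 (adjusted p = 0.0486). The calls on Rab20, Rab11a and Rab2a 1419945_s_at held under all 18 alternatives, and those on Rab7, Rab2b and Rab14 1415686_at were each lost under 10 or more. In between, the calls on Rab2a 1418621_at and Rab21 were each lost under 7, that on Rab22a under 6, including without LPS 1, that on Rab14 1419246_s_at under 4 and that on Rab10 under 3.

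Of 140 listed genes that act on Rab proteins or serve as their effectors, 79 were measured, and after LPS 7 rose and 8 fell on their brightest probe set. Against a background of 6.67% of genes higher and 10.4% lower, these shares are near that of all genes. The count of 15 became 9 without untreated 2, 16 without LPS 1, 15 after quantile normalization and 12 after median centring. None of the 7 measured genes that deliver or prenylate Rab proteins passed the test, though Gdi2, a GDP dissociation inhibitor, lay near the threshold (log2 change −0.48, adjusted p = 0.0666). In labelled CstF-64 arrays 0 of 79 passed against untreated, where only 0.105% of all genes were called higher and 0.169% lower.

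Exchange factors gave 2 rises and 4 falls among 18, against 6.67% of all genes higher and 10.4% lower. Rin1, 1 of the falls, lay at or below background on all arrays. Rabgef1 (Rabex-5), which activates Rab5, rose from 59.8 ± 5.52 to 148 ± 50.6 (SD, n = 3 each), 2.15-fold on the offset scale (adjusted p = 0.00742). Rin2, another Rab5 exchange factor, fell from 142 ± 20.1 to 55.0 ± 17.9 (change −1.22, adjusted p = 0.00935). Hps1, part of the exchange factor for Rab32 and Rab38, fell from 80.4 ± 14.9 to 34.3 ± 4.68 (change −0.97, adjusted p = 0.00903). Its LPS arrays, at 31.4, 39.7 and 31.8, lay close to the background limit of 31.2, so the size of that fall is uncertain. Exchange factors listed for the same Rab, Rab5, therefore moved in opposite directions.

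GTPase-activating proteins gave 1 rise and 2 falls among 17, against 6.67% and 10.4% of all genes. Tbc1d14, a regulator of autophagy that binds Rab11, fell from 224 ± 13.2 to 93.2 ± 17.7 (change −1.17, adjusted p = 0.000781). Tbc1d15, which acts on Rab7, fell from 307 ± 20.6 to 230 ± 7.41 (change −0.40, adjusted p = 0.0311), and Tbc1d10b rose by 0.56 (adjusted p = 0.0205). Effectors gave 4 rises and 2 falls among 37, beside the same shares of all genes. Eea1, the tether that Rab5 recruits to early endosomes, rose from 229 ± 48.5 to 413 ± 41.2 (change 0.83, adjusted p = 0.00818). Pik3c3, the lipid kinase Vps34, fell from 86.0 ± 3.33 to 38.0 ± 0.265 (change −0.96, adjusted p = 0.00171). Its LPS arrays also lay near the background limit of 31.2, so the size of that fall is uncertain. Osbpl1a (ORP1L), a Rab7 effector on late endosomes, fell from 120 ± 1.46 to 60.9 ± 5.28 (change −0.85, adjusted p = 0.00216).

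**Figure D4:**
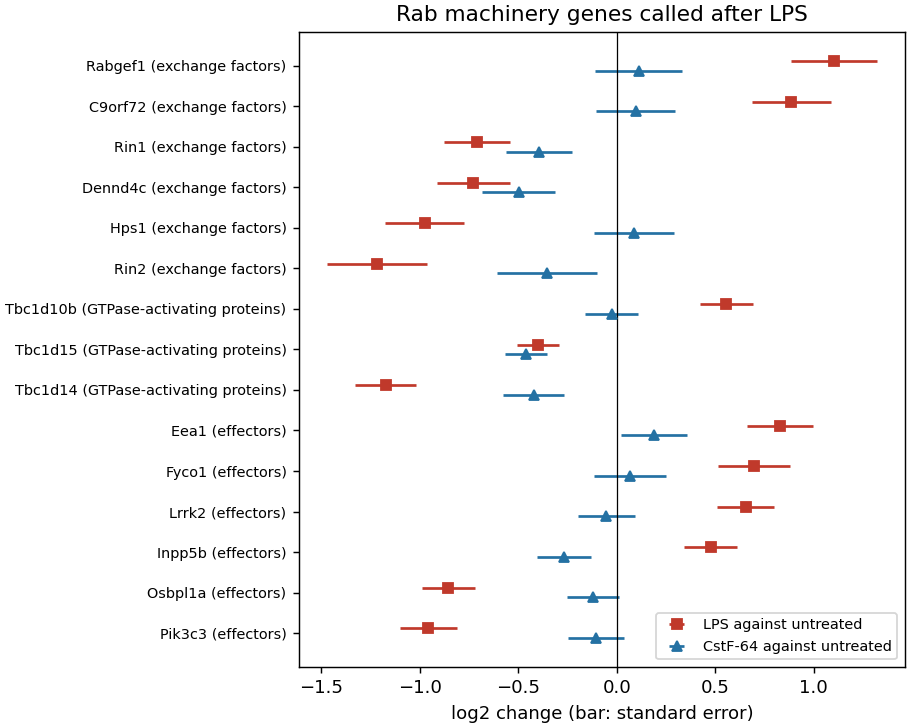
Log2 change against untreated (horizontal axis) of the 15 listed Rab regulators and effectors that were called after LPS, with their class in parentheses. Red squares are LPS arrays, blue triangles labelled CstF-64 arrays and bars standard errors. After LPS 7 genes lie above 0 and 8 below, and none of the blue triangles passed the test.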

How the data were processed

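RNA of 9 samples was measured on Affymetrix mouse arrays. The deposited values are linear intensities, 1 for each probe set on each array; the sources used here do not say how the authors corrected and normalized them. The values show that the authors' arrays share a trimmed mean (2% from each end) of 150.048 to 150.065. Gene symbols came from the platform's annotation; 691 probe sets with several genes and 1555 without a gene stayed unnamed. The 64 control probe sets were left out of tests. Values were transformed to log2(intensity + 13), 13 being 0.25 of the median intensity, rounded. limma 3.58.1 in R 4.3.3 fitted 1 mean per group over the 9 arrays together (lmFit, eBayes with trend), two-sided, and adjusted by Benjamini-Hochberg over 22626 probe sets. The steps were tested on simulated data. Alternatives numbered 18. GTPase genes called on their brightest probe set in either comparison with untreated have that probe set given on all arrays. Other called probe sets are not all given in such detail. Up to 3 genes per class of machinery are named by adjusted p. The members, lists and roles were chosen with earlier results of these data known. In these bulk samples fewer cells of a type and less RNA per cell cannot be told apart.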

Additional observations from a re-analysis of the deposited data

How the results depend on the processing

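Among 18 alternatives, no Rab call turned its direction, and labelled CstF-64 arrays against untreated gave 0 Rab probe sets, 0 machinery genes and 0 genes with unequal probe sets wherever these were run. For LPS against untreated, quantile normalization gave 3 lower calls in place of 7, median centring 11 higher and 1 lower, and fitting only the 2 groups compared gave 4 lower. For labelled CstF-64 against LPS, higher calls were 3 after quantile normalization, 1 after median centring, 2 with only the 2 groups and 12 with array weights, in place of 6. Lower calls there were 13 after median centring and 4 with only the 2 groups, in place of 7, and machinery calls were 21 with array weights, in place of 13. Leaving out single arrays, for LPS against untreated, gave 3 to 8 higher Rab calls, 2 to 7 lower, 9 to 17 machinery genes and 0 to 3 genes with unequal probe sets. For labelled CstF-64 against LPS it gave 2 to 6 higher, 2 to 7 lower and 7 to 14 machinery genes. Without untreated 2 the first comparison had 3 higher and 2 lower calls, without untreated 3 it had 2 lower, and without LPS 3 it had 4 higher and 2 lower. The cause of these shifts was not tested.

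Replicate numbers are shared between groups. With the replicate block, LPS against untreated gave 6 higher and 8 lower Rab probe sets and 16 machinery genes, and labelled CstF-64 against LPS gave 7, 7 and 16. Same-numbered arrays correlated at −0.06 to 0.16 in their deviations from group means, and different-numbered arrays at −0.24 to 0.20. These values show no clear pairing, but 3 arrays per group are too few to exclude it. Not every array correlated best with its own number. Probe sets near or below 31.2 have no usable fold, and 23 of the 95 GTPase probe sets lay there on all arrays.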
